A study of Homo sapiens with 4 samples.

Results

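The 5 genes described here encode surface proteins used or studied as targets in prostate cancer: FOLH1 (PSMA), STEAP1, STEAP2, PSCA and CD276 (B7-H3). They were chosen by name and found by mapping the Entrez Gene identifiers of the expression tables to symbols, which gave all 5 members among 19801 genes. The identifiers are 2346 for FOLH1 on chromosome 11, 26872 for STEAP1 and 261729 for STEAP2 on chromosome 7, 8000 for PSCA on chromosome 8 and 80381 for CD276 on chromosome 15. All 5 reached the filter used for comparisons, an RPKM (reads adjusted for exon length and sequencing depth) of at least 1 in at least 1 library, as did 14626 genes in all.

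The RNA came from LNCaP cells, an androgen-sensitive line that was derived from a lymph node metastasis of prostate adenocarcinoma. Cells were transfected for 24 h with an empty vector or with the construct labelled AR1-651, and were then kept for 12 h with or without AIL (ailanthone, a natural compound of plant origin). The 4 conditions are thus the empty vector without and with AIL (empty vector + AIL) and the AR1-651 construct without and with AIL (AR1-651 + AIL). All were grown in the same serum-containing medium. Each condition was 1 library from the same cell line, so differences could not be checked against replicates and were not tested. Expression was measured by RNA-seq, and the AIL concentration is not in the sample labels. The comparisons address how the construct changes gene expression in these cells, and what AIL does to expression with and without it.

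Apart from STEAP1 and STEAP2, which share a family, these antigens belong to unrelated protein families. All share high or accessible expression on prostate tumour cells. PSMA is a membrane-bound carboxypeptidase that cleaves glutamate from peptides and folates, and it is the target of radioligand imaging and therapy. STEAP1 and STEAP2 are multi-pass membrane proteins of the STEAP (six-transmembrane epithelial antigen of the prostate) family, several of whose members reduce iron and copper. PSCA (prostate stem cell antigen) is a small protein of the LY6/uPAR family that is held at the membrane by a lipid anchor. CD276 is a B7 family ligand that acts on T cells. FOLH1 is known as a gene whose expression tends to be higher when androgen signalling is low.

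The steps between the lowest RPKM values corresponded to about 4730000 to 5590000 reads per library. All 7 luminal prostate markers (among them KRT8, KRT18, HOXB13 and FOXA1) had RPKM of at least 1 in all 4 libraries, whereas the basal marker KRT14 did not exceed 0.21, the stromal marker DCN did not exceed 0.15 and the pan-leukocyte marker PTPRC did not exceed 0.94. Of 4 stromal markers, 2 or 3 per library had RPKM of at least 1, none above 8.49, and the immune marker CD68 was at 8.31 to 12.2. Among genes known to respond to androgen, 5 of 6 (KLK3, KLK2, TMPRSS2, FKBP5, SLC45A3 and NDRG1) were at least 2-fold higher on the log2(RPKM + 1) scale in the library labelled AR1-651 than with empty vector, and the sixth, NDRG1, was 2.01-fold higher in RPKM. Their median log2 change was 2.60, beside 4.01% of all genes at least 2-fold higher. All 6 were at least 2-fold lower when AIL was added to it, with a median of -2.001, beside 5.74% of all genes. Ribosomal protein genes made up 33.2% of the summed RPKM in the library labelled AR1-651 and 22.5% to 25.7% in the other libraries, and their part in the differences below was not tested.

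FOLH1 was the most abundant of the antigens in every library. Its RPKM was 656 with empty vector, 425 with empty vector + AIL, 839.9 in the library labelled AR1-651 and 553 in that labelled AR1-651 + AIL. Both AIL libraries were therefore below both libraries without AIL, and within each treatment the library labelled AR1-651 was the higher one. FOLH1 ranked between position 98 and position 146 from the top of 19801 genes. Its highest value was 1.98 times its lowest, the narrowest range among the 5 antigens. The approximate read numbers, 4900 to 11061, make counting error small here, and the 95% counting interval of the AIL fold was 0.625 to 0.671 with empty vector and 0.639 to 0.678 in the AR1-651 background. In these bulk samples fewer cells that express a gene and less RNA per cell cannot be told apart. FOLH1 has a near-copy, FOLH1B, which shares 47.1% of its 50-nt windows with FOLH1, and how the authors' counting divided reads between them is uncertain. FOLH1B was listed at 1.55 with empty vector and 1.27 in the library labelled AR1-651, and at 0 in both AIL libraries; these values are small beside those of FOLH1.

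STEAP1 had its lowest value where STEAP2 had its highest. STEAP1, which binds haem but lacks the cytoplasmic oxidoreductase domain of its relatives, had an RPKM of 139 with empty vector, 206 with empty vector + AIL, 241 in the library labelled AR1-651 and 421 in that labelled AR1-651 + AIL. Each of the other libraries was above empty vector, and the one that combined the AR1-651 label with AIL was the highest, at 3.02 times the empty vector value. STEAP1 moved from position 502 to position 160 among all genes between these libraries, on approximately 906 and 3088 reads. Its near-copy STEAP1B did not exceed an RPKM of 0.2 in any library.

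STEAP2, a metalloreductase, had an RPKM of 124 with empty vector, 31.4 with empty vector + AIL, 51.1 in the library labelled AR1-651 and 43.2 in that labelled AR1-651 + AIL. Empty vector stood above the other libraries by 2.42-fold or more, while the other values lay within a narrow band. The largest contrast was empty vector over empty vector + AIL, at 3.94-fold, which moved STEAP2 from position 589 to position 3158 among all genes. With empty vector STEAP1 and STEAP2 were at similar levels per unit of length, and in the library labelled AR1-651 + AIL STEAP1 was far above STEAP2. An antisense gene, STEAP2-AS1, was listed at 0.34 to 1.17 in the 4 libraries, or about 1 to 4 reads, and whether the counting used strand is not given in the sources used here.

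STEAP1 and STEAP2 follow each other on chromosome 7 when the genes of the expression tables are ordered by listed start coordinate, so their promoters are shown for comparison. The sequences are from RefSeq on GRCh38.p14, 250 bases before and 50 bases after an annotated start, on the + strand. Capitals mark a GC box (GGGCGG or CCGCCC, searched on both strands) or a TATA box (TATAAA, searched on the gene's strand). The windows are chr7:90154219-90154518 for STEAP1, chr7:90211490-90211789 for the upstream start of STEAP2 and chr7:90213570-90213869 for its downstream start.
STEAP1 promoter: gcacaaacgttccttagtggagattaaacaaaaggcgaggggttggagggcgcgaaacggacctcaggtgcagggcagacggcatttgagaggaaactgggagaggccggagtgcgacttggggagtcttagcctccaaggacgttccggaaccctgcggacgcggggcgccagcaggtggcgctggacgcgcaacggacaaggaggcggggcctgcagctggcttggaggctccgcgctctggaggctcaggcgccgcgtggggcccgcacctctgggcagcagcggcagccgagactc
STEAP2 promoter, upstream start: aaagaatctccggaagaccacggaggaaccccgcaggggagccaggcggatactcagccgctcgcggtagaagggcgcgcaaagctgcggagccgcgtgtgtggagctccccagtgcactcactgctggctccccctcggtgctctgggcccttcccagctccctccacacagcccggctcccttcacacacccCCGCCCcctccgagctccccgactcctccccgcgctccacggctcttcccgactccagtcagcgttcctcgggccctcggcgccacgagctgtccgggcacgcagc
STEAP2 promoter, downstream start: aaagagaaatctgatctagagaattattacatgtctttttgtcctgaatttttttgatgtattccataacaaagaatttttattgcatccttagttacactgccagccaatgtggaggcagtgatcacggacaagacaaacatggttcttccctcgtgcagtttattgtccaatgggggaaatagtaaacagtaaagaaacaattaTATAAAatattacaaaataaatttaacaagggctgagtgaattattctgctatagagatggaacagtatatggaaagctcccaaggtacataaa
The STEAP1 window and the upstream STEAP2 window were both rich in G and C, at 66.7% and 70.3%, with 27 and 28 CpG dinucleotides against a median of 14 in all promoters. The downstream STEAP2 window held 33.7% G and C and 2 CpG dinucleotides. A GC box was found at -56 from the upstream STEAP2 start, and 45.0% of 35116 promoter windows hold one. A TATA box was found at -44 from the downstream start, as in 7.33% of windows. The motifs did not overlap, and these letters alone do not show a site in use. The expression tables give 1 value per gene, so which STEAP2 start was used in which library was not measured.

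PSCA was the least abundant antigen in both libraries without AIL, and it was within counting error of CD276 with empty vector + AIL and above CD276 with AR1-651 + AIL. The RPKM of PSCA was 6.36 with empty vector, 13.8 with empty vector + AIL, 4.66 in the library labelled AR1-651 and 15.3 in that labelled AR1-651 + AIL. The AIL libraries were the high ones and the libraries without AIL the low ones, whichever plasmid the label gave. These values rest on about 28, 57, 22 and 75 reads, so counting error is wide. The fold with AIL was 2.17 with empty vector, with a 95% counting interval of 1.36 to 3.55, and 3.28 in the AR1-651 background, with an interval of 2.02 to 5.54. For the AR1-651 label the intervals ran from 0.399 to 1.33 without AIL and from 0.773 to 1.59 with AIL, and a difference in either direction was not detectable at this depth.

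CD276 had the widest range of the antigens. Its RPKM was 37.25 with empty vector, 13.6 with empty vector + AIL, 21.6 in the library labelled AR1-651 and 6.77 in that labelled AR1-651 + AIL. Both AIL libraries were below both libraries without AIL, and both libraries with the AR1-651 label were below their empty vector counterparts. The highest value was 5.50 times the lowest. Approximate read numbers were 573 and 117 in these extremes.

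**Figure D1:**
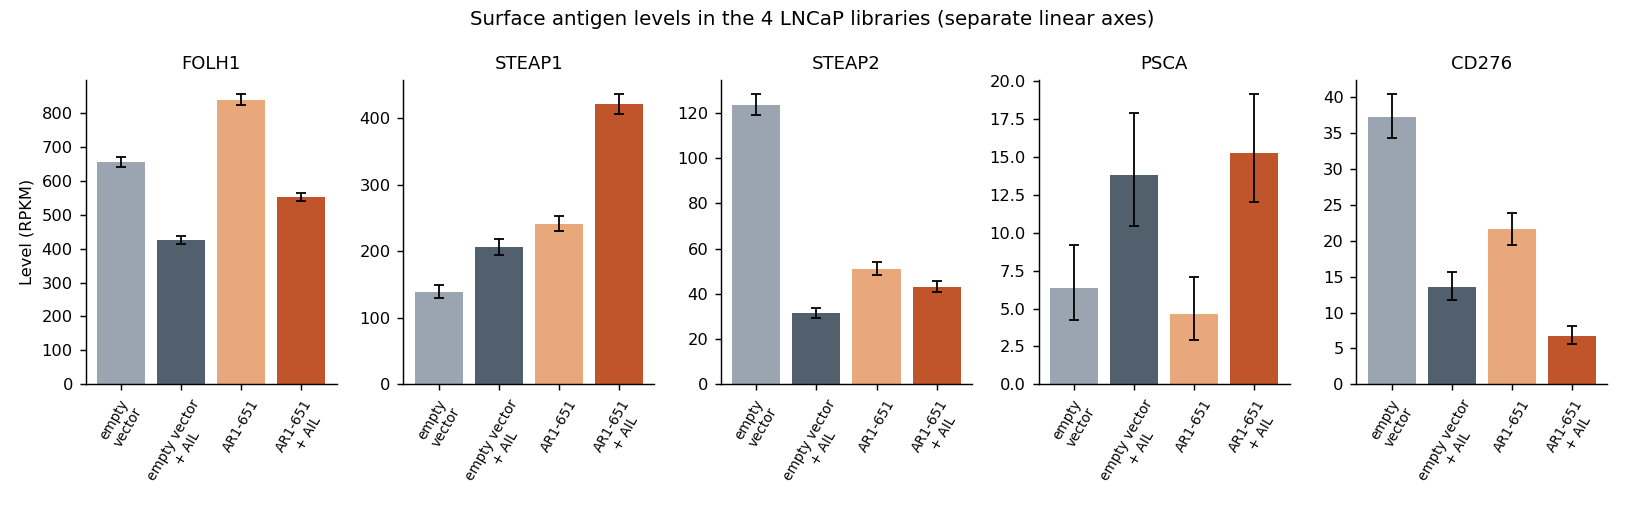
RPKM (linear axes that start at 0 and differ between panels) of each antigen in the 4 libraries; bars are single libraries and error bars are 95% counting intervals from approximate reads. FOLH1 and CD276 are lower in both AIL libraries than in both others, PSCA is higher in both, STEAP1 peaks at 421 with AR1-651 + AIL, and STEAP2 stands out at 124 with empty vector.

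Differences were then taken as changes in log2(RPKM + 1), which understates the change of low genes, and a gene was called at 2-fold or more on that scale. In the library labelled AR1-651 against empty vector, 1 of 5 antigens was called, STEAP2 at -1.26, among 11.6% of all genes called lower and 4.01% called higher. STEAP1 was 0.79 higher and FOLH1 0.36 higher, CD276 was at -0.76 and PSCA at -0.38. Thus the neighbouring genes STEAP1 and STEAP2 differed in opposite directions. Of all genes, 93.3% had a lower change than STEAP1, and 4.52% had a lower change than STEAP2. The 5th and 95th percentiles of all genes were -1.23 and 0.92, so STEAP1 lay within them and STEAP2 just below. The median of all genes was -0.30 in this comparison, and PSCA was close to it. With median-ratio scaling of the 4 libraries the median of all genes was -0.09 and 1066 genes were called higher and 817 lower, against 586 and 1701 without it and 383 and 2486 when ribosomal protein genes were left out of the scaling. On that scaling STEAP1 was called, at 1.06, and STEAP2 reached -0.9951, just short of 2-fold. After removing the dependence of all changes on transcript length and base composition, here called trend removal, STEAP2 was at -0.73 and none of the 5 was called.

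With AIL in empty vector cells 3 of 5 antigens were called. PSCA was called higher, at 1.01, beside 9.53% of all genes, and STEAP2 (-1.94) and CD276 (-1.39) were called lower, beside 9.03% of all genes. Only 1.09% of genes had a lower change than STEAP2 and 3.45% a lower change than CD276. STEAP1 was 0.56 higher and FOLH1 was at -0.63. The PSCA value lay on the threshold, at 0.92 when ribosomal protein genes were left out of the scaling, 0.99 after trend removal and 0.99541 with median-ratio scaling.

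When AIL was added in the AR1-651 background, PSCA was called higher again, at 1.52, beside 14.9% of all genes, and CD276 was called lower, at -1.54, beside 5.74% of all genes. Of all genes, 1.78% had a lower change than CD276. STEAP1 was 0.80 higher, FOLH1 was at -0.60 and STEAP2 at -0.24. The median of all genes was 0.13, with 2184 called higher and 839 lower. Under median-ratio scaling these became -0.03, 1582 and 1261, with the same antigens called. FOLH1 crossed the threshold after trend removal, at -1.03.

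Between the AIL libraries, the AR1-651 label against empty vector gave 1 call, STEAP1 at 1.03, beside 1.46% of all genes called higher and 3.53% called lower. Its fold in RPKM was 2.04, with a 95% counting interval of 1.91 to 2.18, and 98.7% of genes had a lower change. After trend removal it was at 0.66 and no antigen was called. CD276 was 2.003-fold lower in RPKM but at -0.91 on the log2(RPKM + 1) scale, short of the call. STEAP2 was 0.45, FOLH1 0.38 and PSCA 0.14 higher.

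**Figure D2:**
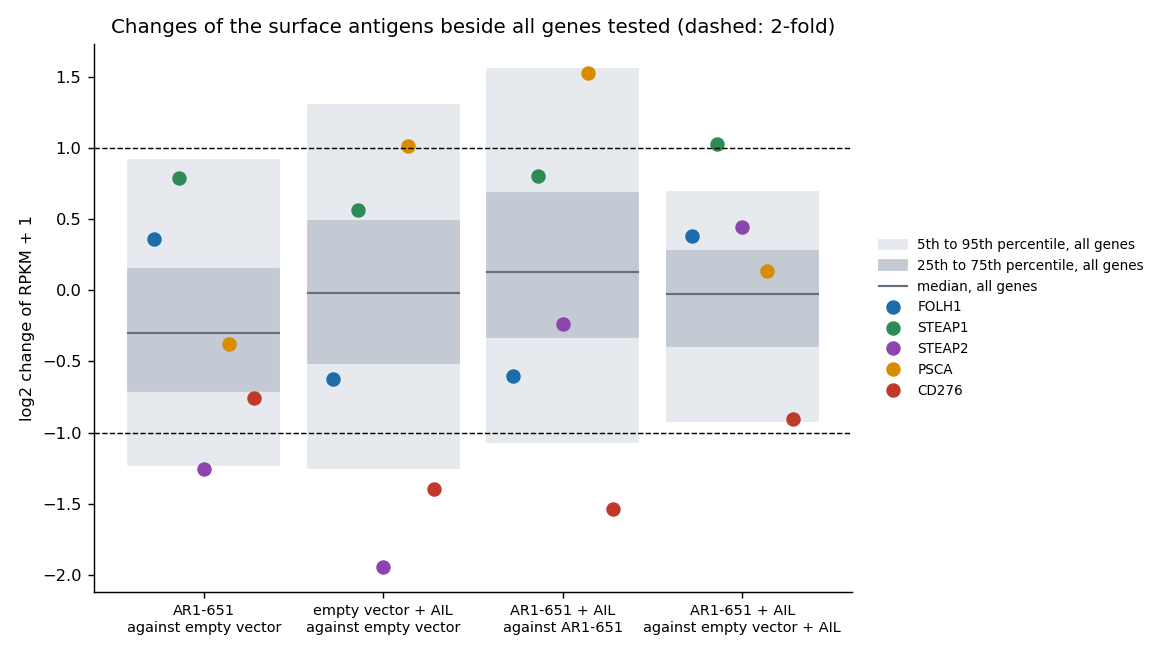
Change in log2(RPKM + 1) of each antigen (points) in the 4 comparisons of single libraries, with the 5th to 95th and 25th to 75th percentiles and the median of 14626 genes as shaded bands and a line; dashed lines mark 2-fold. STEAP2 at -1.94 and CD276 at -1.39 and -1.54 lie below the bands in the AIL comparisons, and STEAP1 at 1.03 lies above the band in the last one.

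The direction of the AIL change was the same in both backgrounds for 5 of 5 antigens, beside 70.2% of all genes, and the libraries of these comparisons are not shared. STEAP1 and PSCA were higher with AIL, and FOLH1, STEAP2 and CD276 were lower. The sizes were close for FOLH1, which differed by 0.02 between the backgrounds, and for CD276, which differed by -0.15 (AR1-651 minus empty vector). STEAP2 was the exception, with a difference of 1.71 that 97.2% of genes did not reach: AIL accompanied a 3.94-fold lower RPKM with empty vector and a 1.18-fold lower one where STEAP2 was already low under the AR1-651 label. With trend removal the STEAP2 change in the AR1-651 background was -0.97, so the contrast was smaller. The AR1-651 label went with the same direction with and without AIL for 3 of 5 antigens (FOLH1, STEAP1 and CD276), beside 63.1% of all genes.

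**Figure D3:**
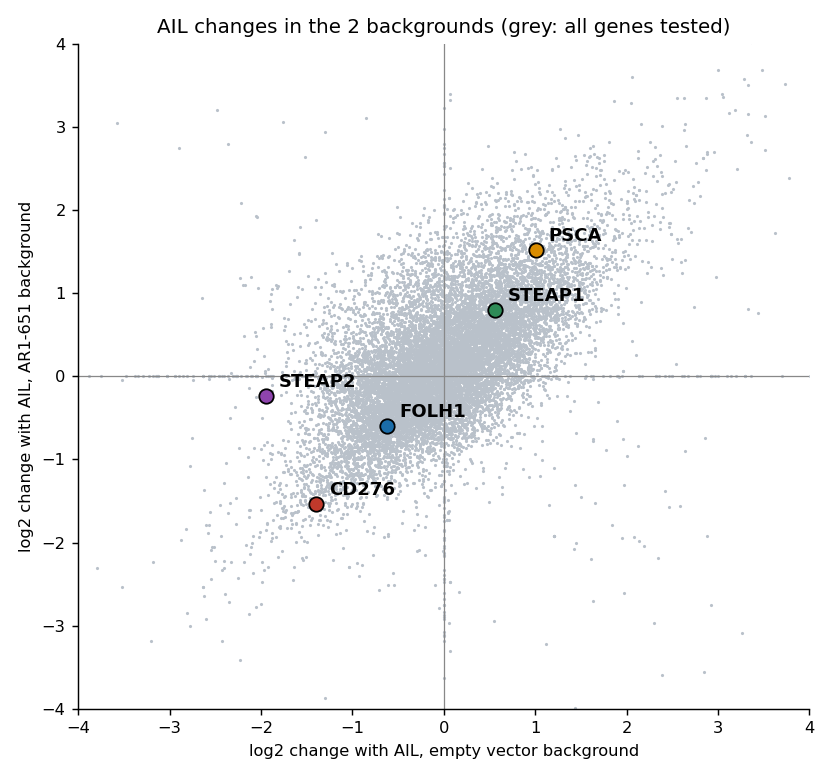
Change in log2(RPKM + 1) with AIL in the empty vector background (horizontal) and in the AR1-651 background (vertical) for the 5 antigens (coloured points) and all genes tested within the axis limits (grey points). The antigens lie in the upper right or lower left, and STEAP2, at -1.94 and -0.24, is the one farthest from equal changes.

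Relatives of the antigens and other surface targets were taken as lists, in which FOLH1's relatives had 4 of 6 genes past the filter, the LY6/uPAR family 4 of 9, the B7 family 3 of 8 and the STEAP family 1 of 3. The remaining list, of other surface antigens pursued in carcinomas, had 10 of 15. Of the 4 FOLH1 relatives, 3 were lower with AIL in the empty vector background and 2 of these were called, with a median of -1.01 over the 4, beside 51.0% of all genes below 0 and 9.03% called lower. After trend removal, which 3 of them allowed, the median was -0.41 with 1 call. At a minimum RPKM of 5, 2 of them remained, 1 of which was lower, with 0 called and a median of -0.32. The calls without this minimum included FOLH1B, which was at 1.55 with empty vector and 0 with empty vector + AIL. In the AR1-651 background 3 of 4 were higher with AIL, with a median of 0.05, beside 56.2% of all genes above 0. Of these 3, 1 was at 0.006 and another at 0.09. With median-ratio scaling 1 of 4 was higher, and after trend removal 1 of 3. In the library labelled AR1-651 against empty vector, all 3 B7 family genes were lower, as CD276 was, and 2 were called (1 with median-ratio scaling, 0 after trend removal), beside 67.0% of all genes below 0 and 11.6% called lower. The list held a gene that passed the filter only with empty vector, at 1.28, and was thus bound to be lower here. At a minimum RPKM of 5 only 1 of the B7 family genes, ICOSLG, remained. STEAP3, an endosomal ferrireductase, was lower in all 4 comparisons, between -0.94 and -0.46, except that trend removal put it at 0.09 for the library labelled AR1-651 against empty vector. All 4 LY6/uPAR genes were lower with AIL in both backgrounds, with medians of -0.60 and -0.65, beside 51.0% and 42.5% of all genes below 0. Some of them passed the filter only in libraries without AIL, which favours a lower value with AIL. At a minimum RPKM of 5, 2 LY6/uPAR genes remained. Both were lower with AIL in both backgrounds, with medians of -0.37 and -0.65. PSCA was higher with AIL in both backgrounds. Of the 3 B7 family genes, 2 were above 0 with AIL in the AR1-651 background, beside 56.2% of all genes, and CD276 was at -1.54. With median-ratio scaling, and after trend removal, 1 of the 3 was above 0. Of the 2, 1 was at 0.009, with an RPKM of 0.61 without and 0.62 with AIL. All 10 other surface antigens were lower with AIL in the empty vector background, with a median of -0.61 and 1 of them called, beside 51.0% of all genes below 0 and 9.03% called lower, and 9 were lower after trend removal. This list too held a gene that passed the filter only with empty vector, at 1.08, and was thus bound to be lower there. At a minimum RPKM of 5, 7 genes remained and all 7 were lower, with a median of -0.70 and 1 called. In the AR1-651 background 7 of the 10 were lower with AIL, with a median of -0.26 and 0 called. Of all genes, 42.5% were below 0 there and 5.74% were called lower.

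NAALADL2, a relative of FOLH1 by sequence, had an RPKM of 11.9 with empty vector, 7.07 with empty vector + AIL, 4.92 in the library labelled AR1-651 and 14.9 in that labelled AR1-651 + AIL. It was low where only 1 of the 2 treatments was given, and its AIL change was -0.67 with empty vector and 1.43 in the AR1-651 background. After trend removal its change with AIL in the AR1-651 background was 0.53 and no longer reached 2-fold. The B7 family ligand ICOSLG, which binds ICOS on T cells, had an RPKM of 5.22, 6.53, 1.84 and 3.11 in the same order, and was called lower in the library labelled AR1-651 against empty vector, at -1.13 (-0.94 with median-ratio scaling, short of the call). The adhesion protein NECTIN4, the target of an antibody-drug conjugate, had an RPKM of 6.12, 2.05, 3.89 and 2.12 and was called lower with AIL in the empty vector background, at -1.22. TFRC, the transferrin receptor and a structural relative of PSMA, stayed between 44.98 and 48.3 in all 4 libraries, and it, STEAP3 and FOLH1B were named after their values were seen.

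**Figure D4:**
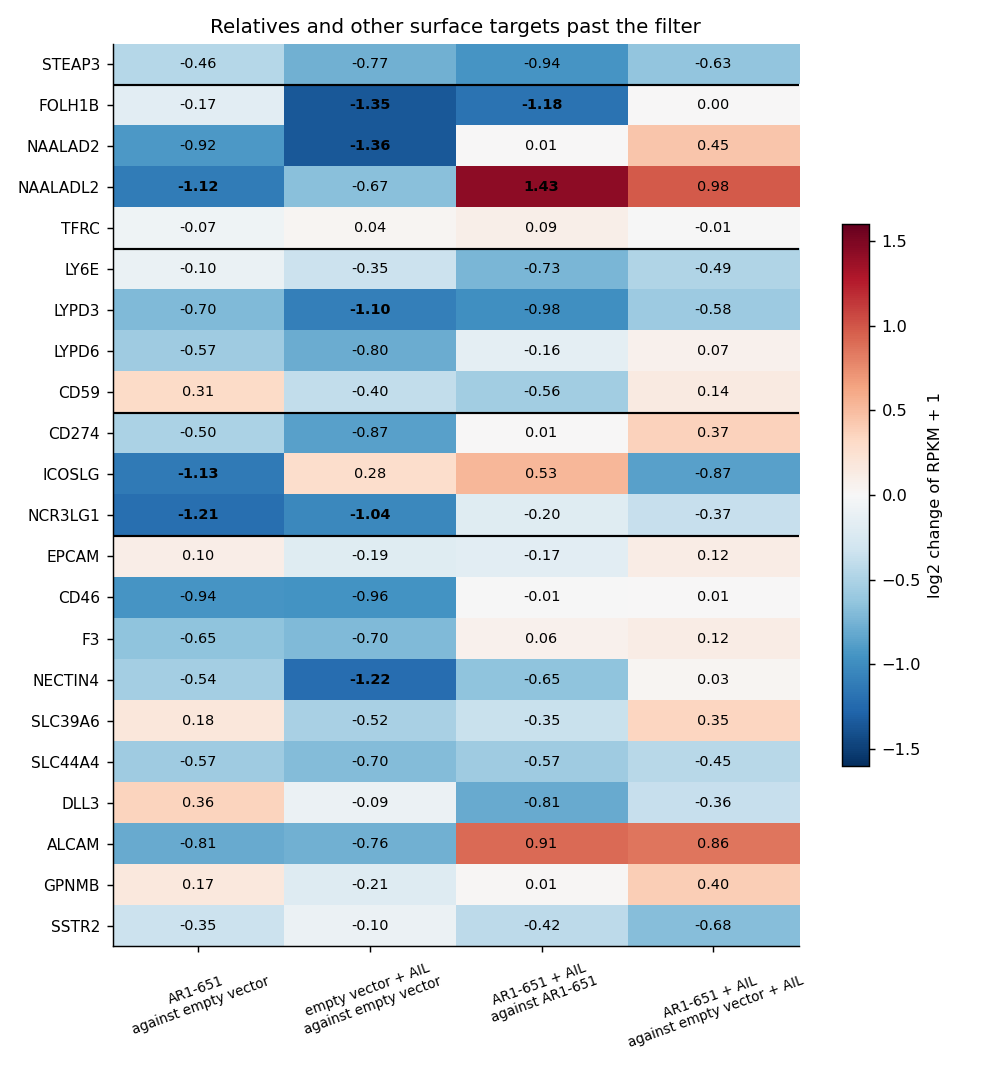
Change in log2(RPKM + 1) of the relatives and other surface targets past the filter (rows, black lines between lists) in the 4 comparisons (columns); red is higher, blue is lower, and bold values reach 2-fold. NAALADL2 goes from -1.12 to 1.43 across the columns, and all 10 genes of the bottom block are below 0 in the column for AIL in the empty vector background.

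By the root-mean-square distance between centred log2(RPKM + 1) profiles over the 4 libraries, the genes most like each antigen were sought among 10680 genes. DHX32, CNPY4 and BPGM were the nearest to FOLH1, at distances of 0.030 to 0.032. For STEAP1 they were C11orf65, VRK1 and ZCCHC10, at 0.070 to 0.089. STEAP2 was nearest to ZPLD2P, FAM111B and FRG1BP, at 0.084 to 0.125. RIOX2, EFL1 and ZKSCAN5 were nearest to PSCA, at 0.026 to 0.035, and SLC35C1, NSMF and SLC8B1 to CD276, at 0.047 to 0.054. FAM111B, for example, had an RPKM of 28.7 with empty vector, 6.51 with empty vector + AIL, 9.89 under the AR1-651 label and 9.81 under AR1-651 + AIL, which is the pattern of STEAP2 at a lower level. None of the antigens was among the nearest genes of another.

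The genes around the STEAP pair on chromosome 7 were looked at after the values of the pair were seen. CFAP69, which encodes a cilia and flagella protein and follows STEAP2, had an RPKM of 6.64 with empty vector, 2.47 with empty vector + AIL, 3.30 in the library labelled AR1-651 and 4.11 in that labelled AR1-651 + AIL. As with STEAP2, empty vector was the highest and empty vector + AIL the lowest, and the AIL change with empty vector was -1.14. In the AR1-651 background CFAP69 was 0.25 higher with AIL, whereas STEAP2 was at -0.24. The CFAP69 values rest on about 114, 40, 62 and 80 reads. GTPBP10, a GTP-binding protein gene farther along, had 9.50, 14.5, 7.94 and 21.1, and like STEAP1 it was highest in the library labelled AR1-651 + AIL. Unlike STEAP1 (0.79), GTPBP10 was lower in the library labelled AR1-651 than with empty vector, at -0.23. LOC101409256, the next gene, had 4.11, 2.39, 2.86 and 1.61, and was lowest in the library labelled AR1-651 + AIL. How many of all genes share these orders was not counted. STEAP4, on the other side of the pair, did not exceed 0.56, and LOC101927446, after CFAP69, did not exceed 0.89.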

How the data were processed

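LNCaP RNA-seq libraries of 4 conditions, 1 library each, were compared. Per the labels, libraries were made with a stranded total RNA kit with rRNA depletion, although the protocol also names oligo(dT) enrichment. The submitters' processing notes name BWA 0.7.10-r789 and hg19. The counting tool is not given in the sources used here. The authors deposited RPKM values per Entrez gene, rounded to 2 decimals, with no scaling between libraries. RPKM depends on the share of reads that abundant genes take.

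Symbols were mapped by Entrez identifier for 19703 of 19801 genes. Changes were differences in log2(RPKM + 1) between single libraries, called at 2-fold, over the 14626 genes that reached an RPKM of 1 in any library. No test was run, because each condition has 1 library. The unit of 1 read was the mode of RPKM x transcript length over single-transcript genes of 300 to 1500 nt. Between 64.6% and 70.4% of genes near 1 read were within 10% of it. Reads of a gene used its mean transcript length (GENCODE 29, matched through RefSeq), so they are approximate. Counting intervals (95%, exact, from these reads) cover counting error only. The script was tested on simulated data. Members and lists were chosen with earlier results of these data known. Named were the 5 members, any listed relative changed 2-fold with RPKM of at least 5 in 1 of the compared libraries, and the 3 genes most alike. Genes named outside this rule are said to be so. Certain results are not reported here. Alternatives were median-ratio scaling, scaling without ribosomal protein genes, a pseudocount of 0.1, a threshold of 1.5-fold, a minimum RPKM of 5 and no minimum. Removal of each change's dependence on transcript length and GC content (polynomial of degree 3 in ranks) was chosen after seeing the data. Software versions were pandas 2.3.3, numpy 2.4.6, scipy 1.17.1 and matplotlib 3.10.9, run in Python 3.11.15.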

Additional observations from a re-analysis of the deposited data

Results flagged for a closer look

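The changes under the AR1-651 label had opposite signs without and with AIL for STEAP2, PSCA, NECTIN4 and NAALADL2. Of all genes, 63.1% had the same direction in both. Listed genes outside the naming rule also had opposite signs, among them ALCAM, at -0.81 and 0.86. For STEAP2 the log2 changes were -1.26 and 0.45, a difference of 1.71, which is by arithmetic the same quantity as the difference of its AIL changes. For PSCA they were -0.38 and 0.14, a difference of 0.51, on 22 to 75 reads per library, and neither change was detectable at this depth. NECTIN4 had changes of -0.54 and 0.03, a difference of 0.57. NAALADL2 was opposite both ways. Its AR1-651 change was -1.12 without and 0.98 with AIL. Its AIL change was -0.67 with empty vector and 1.43 in the AR1-651 background. The difference, 2.10, is by arithmetic the same quantity either way and is not a second observation. After removal of the dependence on transcript length and GC content these NAALADL2 changes were -0.32, 0.62, -0.41 and 0.53, and with median-ratio scaling the first of them was -0.89, so neither setting kept it at 2-fold. With 1 library per condition these differences were not tested.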

How the results depend on the processing

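All 20 antigen changes (5 antigens in 4 comparisons) kept their direction under each of the 6 alternatives other than the lower threshold, and 15 of 20 kept their side of 2-fold. The settings for minimum RPKM leave these values as they are, and a lower pseudocount cannot reverse a direction. Only median-ratio scaling, scaling without ribosomal protein genes and removal of the dependence on length and GC content could have changed a direction. At a 1.5-fold threshold more antigens were called, by the lower threshold alone, as were many of the 14626 genes. For the AR1-651 label against empty vector 3 were called (STEAP1 higher, STEAP2 and CD276 lower), beside 1570 genes higher and 4720 lower. With AIL in empty vector cells 4 were called (PSCA higher, FOLH1, STEAP2 and CD276 lower), beside 3064 and 3233. With AIL in the AR1-651 background 4 were called (STEAP1 and PSCA higher, FOLH1 and CD276 lower), beside 4183 and 2145. Between the AIL libraries 2 were called (STEAP1 higher, CD276 lower), beside 1130 and 2271. With the dependence on length and GC content removed (the trend), an alternative chosen after seeing the data, 0 were called in both comparisons of the AR1-651 label, and the cause was not tested. Median-ratio scaling gave 1 call for the AR1-651 label against empty vector, as without it, but of STEAP1 and not STEAP2. Over all genes, that comparison called 586 higher and 1701 lower, and 383 and 2486 without ribosomal protein genes, 657 and 523 with the trend removed, 769 and 3047 with a pseudocount of 0.1, and 1570 and 4720 at 1.5-fold. For AIL with empty vector, 1394 and 1321 became 1812 and 2139 with a pseudocount of 0.1, and 3064 and 3233 at 1.5-fold. For AIL in the AR1-651 background, 2184 and 839 became 3016 and 1331, 4183 and 2145 in the same order, and 1162 and 1053 with the trend removed. Between the AIL libraries, 214 and 517 became 509 and 1160, 1130 and 2271, and 165 and 189 likewise, and 112 and 402 at a minimum RPKM of 5. No paired test was run, because each condition had 1 library and the labels carry no replicate numbers. The AIL changes within each plasmid background were compared without a test. PSCA, at 22 to 75 reads, is the antigen whose values depth limits most.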
